A study of Mus musculus with 6 samples.

Results

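The 10 genes described here are markers of resident tissue macrophages: C1qa, C1qb, C1qc, Vcam1, Cd5l, Slc40a1, Spic, Axl, Mertk and Hmox1. They were taken by symbol from the platform's probe annotation, which gave 16 probes for them among 45281 probes and 19057 named genes on the array. They were chosen on earlier results for the intensities of the same 6 arrays, so their levels in the compared populations are given as a description and carry no p-value. Total RNA of mouse bone marrow cells was hybridised to Illumina bead arrays, 1 sample per array, for monocyte-like precursors of granulocytes (MLPG, the Ly6C high cells, 3 samples) and granulocytic progenitors (GP, the Ly6C low cells, 3 samples). The labels of both groups give no strain, genotype, age or treatment of the mice, no way of cell isolation, and no statement that replicates are separate animals. Values are intensities as normalized by the authors, and differences are MLPG minus GP on the log2 scale.

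Macrophages that stay in the marrow engulf dying cells and the nuclei that red cell precursors shed, and return the iron of hemoglobin to the blood. C1q, built from the chains encoded by C1qa, C1qb and C1qc, is the recognition molecule of the classical complement pathway and is made mainly by macrophages, not by liver cells. Mertk and Axl are receptor kinases through which macrophages take up apoptotic cells. Spic is a transcription factor of the Ets family needed for red pulp macrophages of the spleen and iron-recycling macrophages of the marrow. Hmox1 breaks down heme, and Slc40a1 (ferroportin) exports the iron. Vcam1 is an adhesion molecule of marrow macrophages and stroma, and Cd5l is a secreted scavenger protein of macrophages.

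Every array had the same distribution of values, with a median of 179.3, a lowest value of 88.2 and a highest of 71674. The granule genes Mpo and Elane lay between 66265 and 71012 and between 67317 and 70847 on all 6 arrays, near the top of the scale. Ly6c1, a gene of the Ly6C antigen that names both populations, averaged 47581 ± 5063 in MLPG and 35786 ± 4443 in GP (SD, n = 3 each). GP replicate 1 stood apart from the other 5 arrays in these macrophage genes, as shown by its values below, and differences are therefore also given without it. Of the 6 arrays it was the highest for 21.0% of all probes, against 13.8 to 19.2% for each of the others. In bulk RNA, fewer cells of a type and less RNA per cell cannot be told apart.

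The 3 chains of C1q were high in GP replicate 1 and low on the other 5 arrays. C1qb had intensities of 174, 131 and 109 in MLPG replicates 1 to 3, against 1384, 192 and 206 in GP replicates 1 to 3. All 3 GP arrays lay above all 3 MLPG arrays, GP replicate 1 by far the most. C1qc had 177, 166 and 160 in MLPG, against 1230, 156 and 158 in GP. Outside GP replicate 1 the C1qc values of MLPG and GP lay within a narrow band, and MLPG replicate 1 was the highest of them. C1qa had 171, 184 and 168 in MLPG, against 368, 214 and 177 in GP, so that GP replicate 1 was again highest and the groups overlapped.

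Within the pair of arrays numbered 1, the GP sample exceeded the MLPG sample 7.96-fold for C1qb, 6.95-fold for C1qc and 2.15-fold for C1qa. In pair 2 the corresponding GP over MLPG ratios were 1.47, 0.938 and 1.16, and in pair 3 they were 1.89, 0.988 and 1.06. C1qb was higher in GP in every pair, as was C1qa by less, and C1qc in pair 1 only. The group means were 138 ± 33.1 in MLPG and 594 ± 684 in GP for C1qb, 168 ± 8.74 in MLPG and 515 ± 620 in GP for C1qc, and 174 ± 8.57 in MLPG and 253 ± 101 in GP for C1qa (SD, n = 3). The SD of C1qb and C1qc in GP exceeded the mean itself. The log2 differences were -1.49 for C1qb, -0.90 for C1qc and -0.47 for C1qa, and without GP replicate 1 they were -0.56, 0.09 and -0.16. C1qc lay above the median of all probes on 1 of 6 arrays only, and C1qa and C1qb on 3 each.

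**Figure D1:**
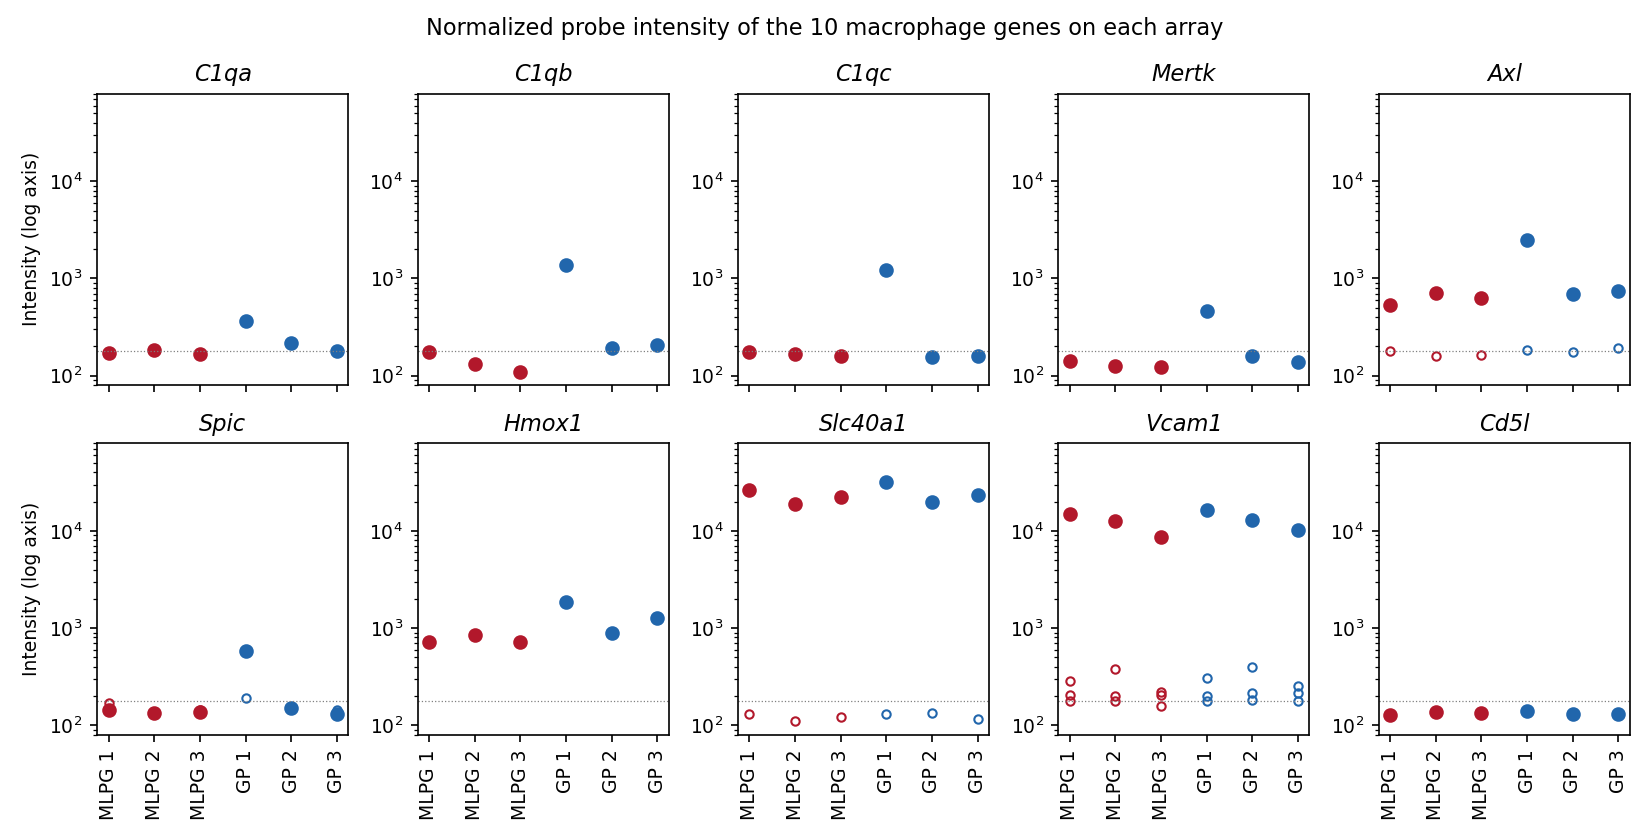
Normalized intensity (log axis) of each of the 10 genes on the 3 MLPG arrays (red) and the 3 GP arrays (blue), with filled points for the brightest probe of a gene, open points for its other probes and a dotted line at the median of all probes, 179.3. C1qb reached 1384 in GP replicate 1 and at most 206 elsewhere, while Slc40a1 and Vcam1 were bright on all 6 arrays.

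C1qb, C1qc and C1qa are direct neighbours among the protein-coding genes of mouse chromosome 4. Promoter windows, from 250 bases before to 50 after the RefSeq start in GRCm38.p6, were at hand for 6 of the 10 genes (Axl, C1qb, C1qc, Cd5l, Mertk and Spic). They were searched on both strands for AGGAAGT, a core sequence bound by Ets factors such as PU.1, for the shorter purine box GAGGAA, and for TGCTGA, the core of the element bound by Maf and Bach factors. These motifs were picked after the levels had been seen. AGGAAGT was in 3 of the 6 windows, those of C1qb, C1qc and Spic, against 9.35% of 32851 windows of the same length. Axl and Mertk, which were also over 2-fold above every other array in GP replicate 1, do not hold it. The 3 windows with the motif are printed to show where it lies, and capitals mark the match, which reads ACTTCCT on the printed strand in each.
C1qb promoter, chr4:136886151-136886450, strand -: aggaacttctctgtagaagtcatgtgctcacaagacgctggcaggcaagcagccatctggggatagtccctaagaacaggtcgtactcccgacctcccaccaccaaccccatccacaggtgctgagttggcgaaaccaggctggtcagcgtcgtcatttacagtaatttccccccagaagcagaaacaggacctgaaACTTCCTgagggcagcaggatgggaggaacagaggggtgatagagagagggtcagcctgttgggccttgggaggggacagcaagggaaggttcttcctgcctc
C1qc promoter, chr4:136892865-136893164, strand -: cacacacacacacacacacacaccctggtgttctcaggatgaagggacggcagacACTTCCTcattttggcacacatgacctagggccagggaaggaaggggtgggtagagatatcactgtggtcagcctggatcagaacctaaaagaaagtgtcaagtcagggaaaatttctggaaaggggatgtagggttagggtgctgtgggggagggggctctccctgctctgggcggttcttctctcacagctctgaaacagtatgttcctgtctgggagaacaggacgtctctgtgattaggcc
Spic promoter, chr10:88682974-88683273, strand -: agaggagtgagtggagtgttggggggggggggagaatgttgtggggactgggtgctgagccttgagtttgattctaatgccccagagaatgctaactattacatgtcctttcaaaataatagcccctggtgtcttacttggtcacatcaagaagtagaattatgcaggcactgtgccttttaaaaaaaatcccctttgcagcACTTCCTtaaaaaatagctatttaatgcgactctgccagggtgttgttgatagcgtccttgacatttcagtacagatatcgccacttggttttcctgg
The match begins at position -53 from the start in C1qb, at -195 in C1qc and at -48 in Spic. In the C1qc window it overlaps the match to GAGGAA. That box was found once each in the windows of Axl, C1qb, C1qc and Cd5l, against 28.3% of all windows, and TGCTGA was found in those of C1qb, Cd5l and Spic, against 19.5%. The Mertk window held none of the 3 motifs. A match is a run of letters and was not tested as a binding site.

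The uptake receptors showed the same array as the high one. Mertk had 141, 126 and 124 in MLPG, against 458, 160 and 137 in GP. GP replicate 1 was 2.86-fold above the next highest array, and the groups overlapped through GP replicate 3. Axl had 536, 704 and 623 in MLPG, against 2471, 690 and 749 in GP. Axl was above the median of all probes on every array, and lay between 536 and 749 outside GP replicate 1. Pair differences were -1.71, -0.34 and -0.15 for Mertk and -2.20, 0.03 and -0.27 for Axl in pairs 1, 2 and 3. The log2 difference between group means was -0.73 for Mertk and -0.81 for Axl, and without GP replicate 1 it was -0.19 and -0.22. A second Axl probe, made to another transcript record, stayed between 159 and 192 on the 6 arrays and did not follow the first.

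Spic, the Ets factor of iron-recycling macrophages, had 144, 135 and 138 in MLPG, against 576, 149 and 131 in GP. GP replicate 1 was 3.87-fold above the next array, and the other 5 arrays lay between 131 and 149. Within pairs 1, 2 and 3 the GP over MLPG ratio was 4.01, 1.11 and 0.947, and the log2 difference between groups was -0.69 with all arrays and -0.0089 without GP replicate 1. A second Spic probe to the same transcript ranged from 136 to 192, with its highest value in GP replicate 1 as well, 1.12-fold above the next. The 2 probes thus had the same highest array but not the same size of difference.

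Hmox1 (heme oxygenase) had 720, 855 and 722 in MLPG, against 1848, 890 and 1278 in GP. Every GP array lay above every MLPG array, with GP replicate 3 second and GP replicate 2 close to MLPG replicate 2. The group means were 766 ± 77.2 in MLPG and 1339 ± 482 in GP (SD, n = 3), and the pair differences -1.36, -0.06 and -0.82. The log2 difference was -0.75 with all arrays and -0.48 without GP replicate 1.

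The iron exporter Slc40a1 was bright in all samples and differed little. It had 26033, 19035 and 22341 in MLPG, against 31610, 19734 and 23672 in GP, and the groups overlapped. Arrays with the same number kept the same order in both groups, replicate 1 highest and replicate 2 lowest. The pair differences were -0.28, -0.05 and -0.08, and the difference was -0.14 with all arrays and 0.04 without GP replicate 1. A second Slc40a1 probe lay below the median of all probes on every array, between 111 and 132.

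Vcam1, the adhesion molecule, was likewise bright in both populations. Its brightest probe had 14984, 12642 and 8735 in MLPG, against 16293, 12795 and 10198 in GP. The groups overlapped. Replicate 1 was highest and replicate 3 lowest in both groups, and each GP array was above its MLPG partner by 1.01-fold to 1.17-fold. The difference was -0.12 with all arrays and 0.05 without GP replicate 1. The other 3 Vcam1 probes, made to other transcript records, ranged from 157 to 400 and had their highest values in GP replicate 2 or MLPG replicate 3. Cd5l, the scavenger protein, stayed between 128 and 139 on all 6 arrays, below the median of all probes, with a log2 difference of -0.00098. GP replicate 1 was 1.02-fold above the next array.

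Taken by brightest probe, all 10 genes had their highest value in GP replicate 1, and 22.3% of the 19057 named genes did so. The excess was over 2-fold above every other array for 5 genes (C1qb, C1qc, Spic, Axl and Mertk), against 0.084% of named genes, and no member was set apart in this way on any other array, where 0.0105% (MLPG replicate 1), 0.0157% (MLPG replicate 2), 0 (MLPG replicate 3), 0.0105% (GP replicate 2) and 0.0525% (GP replicate 3) of named genes were. In pair 1, 7 of 10 genes were at least 2-fold higher in GP, beside 0.645% of named genes. In pairs 2 and 3 the count was 0 of 10, beside 0.304% and 0.677%. None of the 10 was at least 2-fold higher in MLPG in any pair, beside 0.54%, 0.131% and 0.194% of named genes in pairs 1, 2 and 3. The median of the 10 pair differences was -1.53 in pair 1, -0.05 in pair 2 and -0.12 in pair 3, while the medians over all named genes were 0.002, -0.006 and 0.013. Over all arrays the median difference of the 10 genes was -0.71, and without GP replicate 1 it was -0.09.

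**Figure D2:**
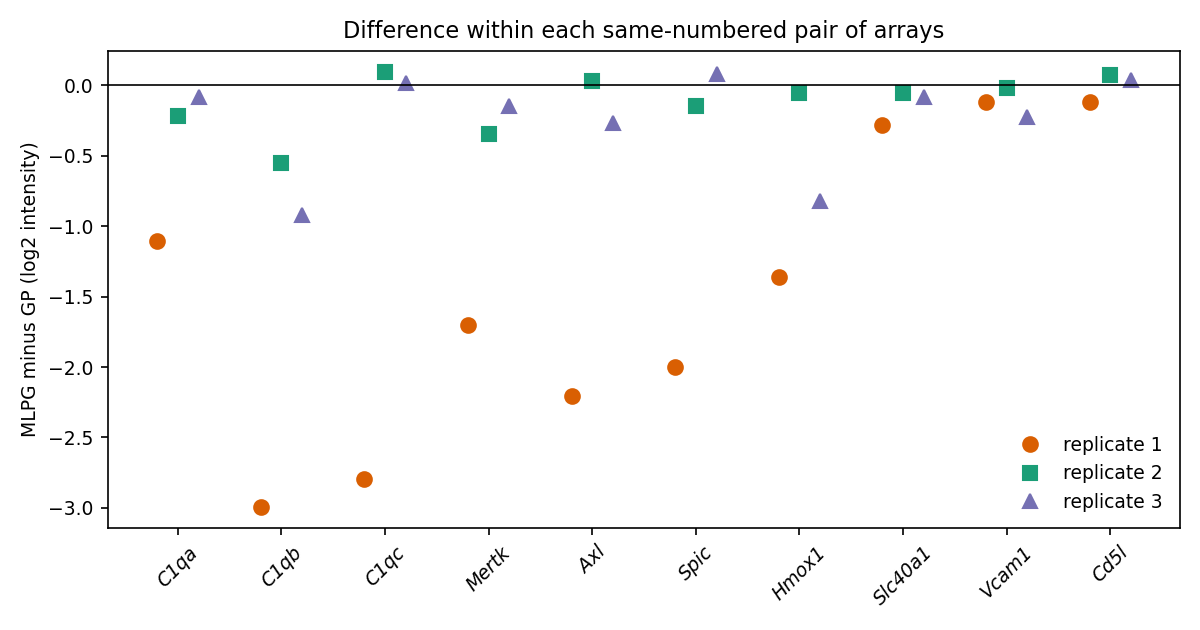
MLPG minus GP log2 intensity of the brightest probe of each gene, for the 3 same-numbered pairs of arrays. Pair 1 (circles) reaches -2.99 for C1qb, while pairs 2 and 3 lie between -0.92 and 0.09 for all 10 genes.

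Of the 10 genes, 7 passed the filter on dim probes. C1qa, C1qb and C1qc had mean log2 values in MLPG of 7.44, 7.08 and 7.39, below the filter's 7.48. C1qb and C1qc passed through GP replicate 1 alone, since without it their mean log2 values were below the filter. C1qc had 156 and 158 in GP replicates 2 and 3, below the median of all probes. C1qb had 192 and 206 on those arrays, against 1384 in GP replicate 1, and C1qa had 214 and 177, against 368. Mertk, Spic and Cd5l did not pass. In the fit over all 15440 features, 79 features were called (0.512%, of which 0.142% higher and 0.369% lower in MLPG, by limma at an adjusted p under 0.05), and none of the 7 was among them. With the replicate number as a block 4.08% of features were called, and again none of the 7. At an unadjusted p under 0.05, 1 of the 7 passed, beside 14.7% of all features. Groups did not overlap for 2 members, C1qb and Hmox1, with GP above MLPG, beside 8.19% of named genes with that order and 16.8% without overlap in either order. Nothing is read from these counts, since the genes were listed with this contrast known.

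The profile of C1q over the 6 arrays was compared with that of 11341 named genes of the fit, by the root mean square distance between log2 values centred on each gene's mean. The nearest were Slco2b1, an organic anion transporter (distance 0.17), Fcna (ficolin A, a lectin of macrophages, 0.23), Cd163 (the hemoglobin scavenger receptor, 0.27), Mrc1 (the mannose receptor, 0.35) and Apoe (apolipoprotein E, 0.36). Tmem45a2, Sdc3, Ntng2, Syne2 and Aph1b followed, at 0.38 to 0.44, and the median gene was at 0.90. Slco2b1 had 134, 138 and 158 in MLPG, against 897, 168 and 168 in GP. Of the members that are not C1q chains, Spic was at 0.17, Mertk and Axl at 0.24, Hmox1 at 0.53 and Slc40a1, Vcam1 and Cd5l at 0.71 to 0.86. All 10 of these nearest genes were highest in GP replicate 1, as the measure requires. Outside that array Slco2b1 (134 to 168) and Cd163 (111 to 177) lay below the median of all probes. They thus passed the filter, and entered the comparison, through GP replicate 1. Fcna, with a mean log2 of 7.38 in MLPG, likewise entered through GP replicate 1, without which its mean was just below the filter. Dim genes without such a high value were not compared.

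A list of 18 other tissue macrophage genes showed which further ones stood out on that array. Of these, 16 had a probe and 12 were tested, and 0 of 12 were called (limma, 2 at an unadjusted p under 0.05, beside 14.7% of all features). The median difference of the 12 was -0.12, against 0.01 over all features. Fcna had 178, 147 and 175 in MLPG, against 1293, 184 and 204 in GP. Cd163 had 142, 175 and 111 in MLPG, against 513, 177 and 161 in GP, and a second Cd163 probe, to the same transcript, stayed between 137 and 155 on all arrays. Mrc1 had 490, 379 and 433 in MLPG, against 1353, 312 and 419 in GP, and Apoe had 279, 239 and 284 in MLPG, against 847, 295 and 389 in GP. These 4 were over 2-fold above every other array in GP replicate 1, beside 0.084% of named genes. Of the 16, 8 had their highest value there, beside 22.3% of named genes. The rest of those 8 were 1.08-fold to 1.44-fold above the next array.

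Adgre1, Gpnmb and Stab1 were among those not highest in GP replicate 1, and Siglec1 was, at a level near the median of all probes. Stab1 had 7026, 7660 and 8168 in MLPG, against 4547, 8563 and 5583 in GP, for the brightest of its 3 probes. Its lowest value was in GP replicate 1. Adgre1, which encodes the macrophage surface protein F4/80, had 1332, 1196 and 981 in MLPG, against 940, 1200 and 1202 in GP. GP replicate 1 was the lowest of the 6 for this brightest of its 3 probes. Siglec1 (CD169), the sialoadhesin of marrow macrophages, had 127, 100 and 118 in MLPG, against 182, 88.2 and 108 in GP. GP replicate 1 was 1.44-fold above the next array and GP replicate 2 at the lowest value of its array. Gpnmb, a glycoprotein of macrophages and osteoclasts, was higher in MLPG, with 328, 315 and 377, against 207, 209 and 265 in GP. Its log2 difference of 0.59 had an adjusted p = 0.11 by limma, and 0.016 once the replicate number was a block, while its 3 dimmer probes lay between 104 and 167. Of the genes of this list with lower values in MLPG, Apoe differed by -0.79 (adjusted p = 0.33, limma), Cd163 by -0.80 (0.41), Fcna by -1.14 (0.47), and Sirpa, the receptor for CD47, by -0.25 (0.44). Cd163 and Fcna passed the filter through GP replicate 1. Nr1h3, which encodes the oxysterol receptor LXR alpha, differed by 0.21 (adjusted p = 0.45, limma).

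**Figure D3:**
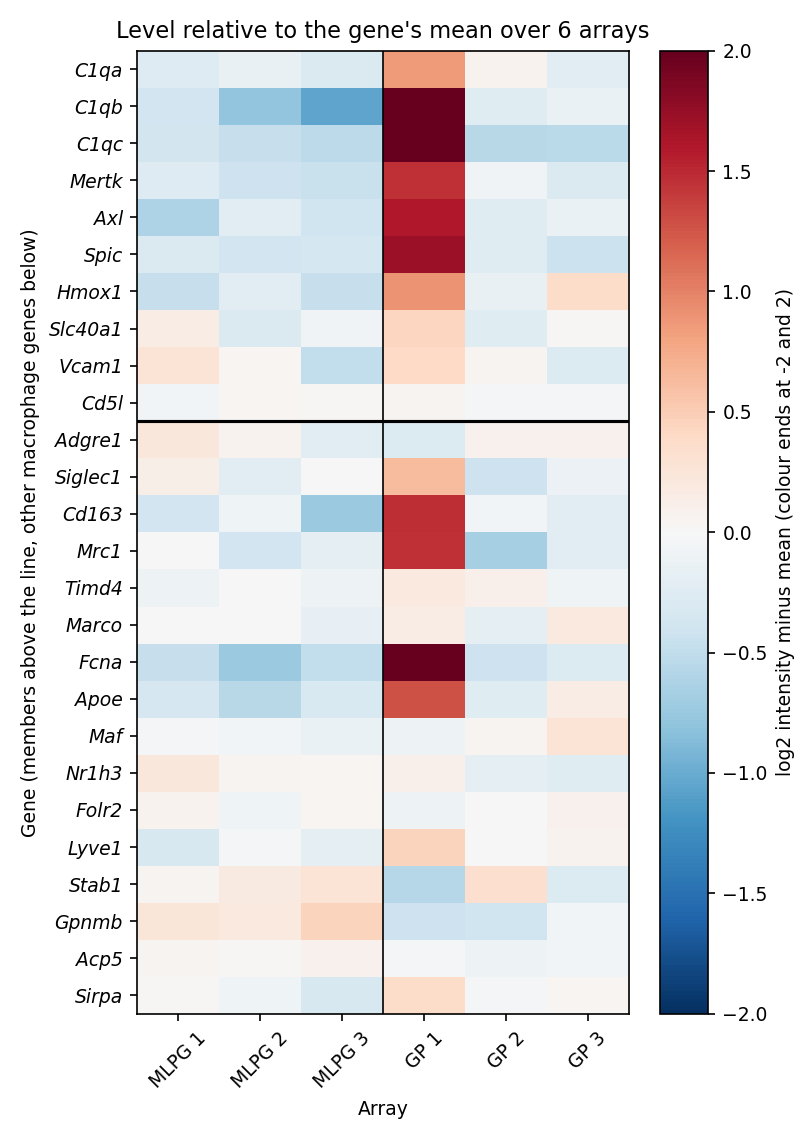
Log2 intensity of the 10 genes (above the line) and of 16 other tissue macrophage genes (below), each minus its mean over the 6 arrays, with MLPG arrays left and GP arrays right. The column of GP replicate 1 is red for C1qb, C1qc, Spic, Axl, Mertk, Fcna, Cd163 and Mrc1, and pale for Adgre1, Maf and Folr2. Stab1 and Gpnmb have their lowest value there.

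Partners of C1q in the classical complement pathway were measured for 14 of 16 listed genes. None of the 10 tested passed (limma, 2 at an unadjusted p under 0.05), with a median difference of 0.12. Cd93, once described as a C1q receptor, had 3459, 3922 and 3003 in MLPG, against 1766, 2956 and 1822 in GP. All MLPG arrays lay above all GP arrays, and its log2 difference of 0.70 had an adjusted p = 0.19 by limma, and 0.022 once the replicate number was a block. Calreticulin (Calr), which binds C1q on dying cells, differed by 0.46 (adjusted p of 0.19 and 0.11 by these fits) and C1qbp, a C1q-binding protein of mitochondria, by 0.52 (0.42 and 0.11). Lrp1, a scavenger receptor that can bind C1q, differed by 0.22 (0.47 and 0.21). The protease gene C1ra, which works in a complex with C1q, differed by -0.30 (0.55 and 0.11). Properdin (Cfp), of the alternative pathway, lay between 21466 and 24722 on all arrays, with a difference of 0.12 (0.56 and 0.49).

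Around Slc40a1 and Hmox1, 22 of 25 genes of heme and iron handling were tested and 0 were called (limma, 6 at an unadjusted p under 0.05), with a median difference of -0.02. With the block 2 were called. Hfe, a regulator of iron sensing, had 2313, 1928 and 1818 in MLPG, against 1498, 1378 and 1478 in GP (log2 difference 0.47, limma adjusted p = 0.13, and 0.043 once the replicate number was a block). Blvrb, which reduces biliverdin, had 1054, 834 and 589 in MLPG, against 1474, 1051 and 1003 in GP (-0.53, limma adjusted p = 0.33, and 0.040 once the replicate number was a block). The transferrin receptor gene Tfr2 differed by -0.68 (adjusted p = 0.18, limma), the phagosomal metal transporter Slc11a1 by -0.61 (0.23), the transferrin gene Trf by -0.37 (0.20) and Blvra by 0.25 (0.24). None of the 22 was over 2-fold above every other array in GP replicate 1.

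Among the genes of apoptotic cell uptake, 12 of 17 were tested and 0 were called (limma, 2 at an unadjusted p under 0.05), with a median of -0.04. With the block 2 were called. Pros1 (protein S), a ligand of Mertk, had 1098, 1328 and 956 in MLPG, against 438, 745 and 490 in GP. The groups did not overlap, and the log2 difference of 1.04 had an adjusted p = 0.086 by limma, and 0.0062 once the replicate number was a block. Itgb5, an integrin chain that binds the bridging protein encoded by Mfge8, had 516, 679 and 628 in MLPG, against 396, 410 and 296 in GP (0.73, limma adjusted p = 0.10, and 0.028 once the replicate number was a block). Stab2, a scavenger receptor for dying cells, had 203, 184 and 189 in MLPG, against 303, 212 and 208 in GP (-0.31, limma adjusted p = 0.39). Every GP array was above every MLPG array, and GP replicate 1 was 1.43-fold above the next. Dock1 differed by 0.20 (limma adjusted p = 0.55) and Adgrb1 by -0.19 (0.55). Mfge8 itself differed by 0.71 (adjusted p = 0.46, limma), with 325 in GP replicate 1 and 1134 in GP replicate 2. The ligand Gas6 and the third receptor of the family, Tyro3, were not tested because their probes lay below the filter, between 148 and 182 and between 116 and 153.

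Of the integrin chains that bind Vcam1, 4 of 5 were tested and 0 were called by limma. At an unadjusted p under 0.05 the count was 0 without the block and 2 with it, and 0 were called in the blocked fit. Itgb1 differed by 0.23 (adjusted p = 0.35, limma) and Itga4 by -0.01 (0.98). Itgb7 had 2130, 2039 and 1312 in MLPG, against 534, 1452 and 1343 in GP (difference 0.82, adjusted p = 0.36, limma). GP replicate 1 lay below the next array by 1.30 on the log2 scale. Itgad, the alpha chain of red pulp macrophages, has 5 probes that disagreed. Of these, 1 had 155, 158 and 146 in MLPG, against 621, 171 and 167 in GP, and another 145, 158 and 159 in MLPG, against 638, 196 and 171 in GP. The other 3 probes, the brightest among them, lay between 130 and 253 and were not highest in GP replicate 1.

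Markers of other cell types were read on the same arrays. Of 11 measured erythroid markers, 9 were highest in GP replicate 1, and their summed intensity ranged from 2187 to 6929 in MLPG and from 6923 to 15880 in GP. Hba-a1, an alpha chain of hemoglobin, had 1951, 1077 and 273 in MLPG, against 5869, 2366 and 2190 in GP. GP replicate 1 was 2.48-fold above the next array. Among MLPG arrays Hba-a1 varied 7.16-fold, C1qa 1.10-fold, C1qb 1.60-fold and C1qc 1.11-fold. For Hba-a1, C1qb, C1qc, Mertk and Vcam1 the order there was the same, with MLPG replicate 1 highest and MLPG replicate 3 lowest. C1qa, Axl, Spic, Hmox1, Slc40a1 and Cd5l did not have this order. The C1qb, C1qc and Mertk values in MLPG all lay below the median of all probes. In pair 3 the GP over MLPG ratio was 8.04 for Hba-a1, 1.06 for C1qa, 1.89 for C1qb and 0.988 for C1qc. The part of erythroid RNA in the macrophage values was not tested.

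The 11 measured monocyte markers had their lowest mean level in GP replicate 1, at -0.70 on the centred log2 scale, against 0.21 to 0.48 in MLPG and -0.08 and -0.39 in the other GP arrays. Their summed intensity ranged from 88382 to 112933 in MLPG and from 85745 to 96183 in GP, and 1 of 11, Lyz2, was highest in GP replicate 1. Most of this sum came from Lyz2 and F13a1, and Lyz2 alone had 61380 of 88850 in GP replicate 1. These genes went opposite ways, with log2 differences of -0.50 for Lyz2 and 1.37 for F13a1 (limma adjusted p of 0.34 and 0.14). Csf1r, the receptor of macrophages and monocytes, had 2106, 2256 and 1983 in MLPG, against 806, 1419 and 834 in GP (log2 difference 1.10, limma adjusted p = 0.072, and 0.010 once the replicate number was a block). Ccr2, a chemokine receptor of monocytes, differed by 0.91 (limma adjusted p = 0.11, and 0.040 once the replicate number was a block) and Cx3cr1 by 0.25 (0.66). The eosinophil markers were lower in GP replicate 1 than in the other GP arrays, with summed intensities of 4583 to 7706 in MLPG, against 56422, 132604 and 118253 in GP replicates 1 to 3. Of 12 stromal and endothelial markers, which cells with Vcam1 could carry, 3 were highest in GP replicate 1, and their sum there, 2804, was the lowest of the 6 arrays. Pecam1 alone had 713 in GP replicate 1 and 1145 to 1834 on the other arrays. On the centred log2 scale the mean of the list was -0.02 in GP replicate 1, between -0.07 in MLPG replicate 1 and 0.08 in MLPG replicate 2. Sums of the stromal markers were 3178 to 3906 in MLPG and 2804 to 3351 in GP. Sums of dendritic cell markers were 3497 to 3556 in MLPG and 4232 to 6983 in GP, highest in GP replicate 2. Summed B and plasma cell markers (27857 to 38741 in MLPG, 27083 to 34569 in GP), T and NK cell markers (40520 to 47184 in MLPG, 31409 to 42568 in GP) and megakaryocyte markers (1201 to 1453 in MLPG, 1690 to 2101 in GP) had their highest array elsewhere than in GP replicate 1. Most of the B and plasma cell sum was Xbp1 alone (25303 to 36469), and most of the T and NK cell sum Nkg7 (30119 to 46051). Cd3d, 1 of the T and NK markers, was highest in GP replicate 1, with 363, 310 and 312 in GP, against 164, 193 and 220 in MLPG. Mature neutrophil markers summed to 375271 to 401003 in MLPG and 431468 to 464205 in GP, highest in GP replicate 1. Most of this sum came from Ltf, Lcn2, Ngp, S100a8 and S100a9, which lay between 55966 and 71674, near the top of the scale. Mmp9 had 1582, 1492 and 795 in MLPG, against 10825, 5053 and 7945 in GP (log2 difference -2.62, limma adjusted p = 0.023). Retnlg differed by -1.82 (limma adjusted p = 0.038), highest in GP replicate 3. The part of any of these cell types in the macrophage values was not tested.

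**Figure D4:**
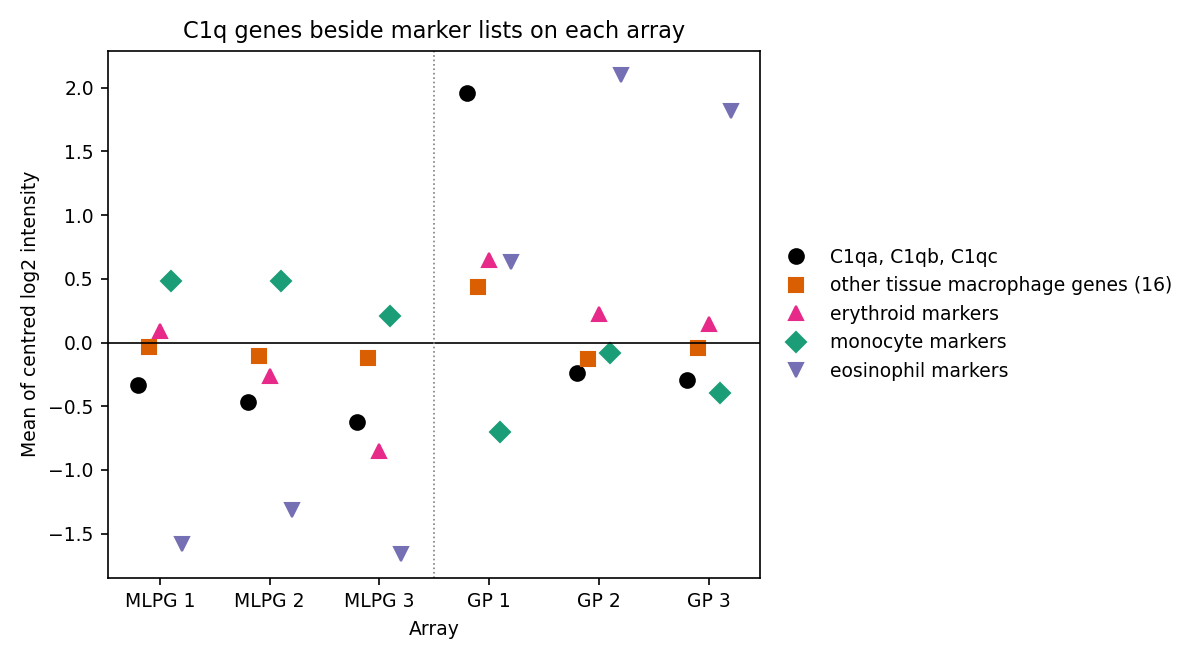
Mean log2 intensity of each gene set on the 6 arrays, after each gene was centred on its own mean, for the 3 C1q genes and 4 lists of markers. The C1q genes reach 1.96 in GP replicate 1 and lie between -0.62 and -0.24 on the other 5 arrays, while the monocyte markers are lowest in GP replicate 1.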

How the data were processed

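Intensities of 45281 probes on 6 arrays were used as the authors deposited them, on a linear scale. Mean, median, lowest and highest value are shared by all 6 columns, as quantile normalization would leave them, and no value is near 0, which compresses differences of dim probes. The submitters' processing notes name GenomeStudio. For its version and settings, the sources used here give nothing. A second table has 12 columns whose names match no label and was not used. Precision is limited by 3 arrays per group, and since separate animals are not stated, a p-value reflects the spread of these arrays, which may be technical only.

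Symbols came from the platform annotation (34885 probes with 1 symbol, 18 with several, 10378 with none). Probes with a mean log2 value above 7.48, the median, were kept, and the brightest probe stood for a gene, giving 15440 features. limma 3.58.1 in R 4.3.3 (lmFit, eBayes, Benjamini-Hochberg) compared MLPG with GP without covariates, at an adjusted p under 0.05, and was tested on simulated data. Same-numbered arrays deviated together (r of 0.38, 0.30 and 0.47 over features, each above 0.1), so blocked p-values (replicate as a factor) are also given. This pairing was read from the data, not the labels. Members, lists and tests were chosen with earlier results of these data known. All member probes are described. Of other lists, the genes with the smallest p are named, up to 6 a list. The first 3 monocyte markers are named, and other marker lists are given mainly by counts and sums. Genes named outside this rule were chosen after their values were seen. They are Adgre1, Siglec1, Stab1, Gas6, Tyro3, Lyz2, Pecam1, Xbp1, Nkg7, Cd3d, the neutrophil markers, dimmer probes and those in the closing section. The 2-fold limit above every other array and the promoter motifs were chosen in the same way.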

Additional observations from a re-analysis of the deposited data

How the results depend on the processing

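The log2 differences of C1qa, C1qb, Axl, Mertk, Spic and Hmox1 stayed below 0 in all 17 alternatives, and C1qb ranged from -2.20 to -0.56, Axl from -1.24 to -0.12 and Spic from -1.08 to -0.0089. Those of C1qc, Vcam1, Slc40a1 and Cd5l crossed 0 in 2, 3, 1 and 5 of the 17. These counts overstate the check. The block over all arrays, the changes of filter and the intensity trend cannot change the difference of a gene. All alternatives but those without GP replicate 1 or pair 1 also keep GP replicate 1. The median over the 10 genes ranged from -0.97 to -0.09, and was -0.09 without GP replicate 1. With the lowest value of each array subtracted, differences of dim probes grew, to -2.20 for C1qb and -1.18 for Mertk. Features called numbered 79, and 630 with the replicate block, 146 with no filter and 220 with array weights. Leaving out 1 array gave 2 to 348 calls. Without MLPG replicates 1, 2 and 3 they were 2, 3 and 2. Without GP replicates 1, 2 and 3 they were 92, 348 and 25. Leaving out pair 1, 2 or 3 in the block gave 465, 2056 and 6. The cause was not tested. Of the members, Hmox1 was called without GP replicate 2, where 348 of 15440 features were. With the block, C1qb was called without pair 1 (465 features called). C1qb, Axl and Hmox1 were called with the block without pair 2 (2056 features called). No member was called in the other alternatives. Nothing is read from these calls, since the members were listed with this contrast known.

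Calls among list genes, 0 as reported, were 1 for other macrophage genes, 1 for complement partners, 2 for heme and iron handling and 2 for apoptotic cell uptake with the replicate block, and 1 for uptake with array weights. Leaving out 1 array gave 0 or 1 call for the last 3 lists (1 each without GP replicate 2, and 1 for heme and iron without GP replicate 1), and leaving out a pair in the block 0 to 5, 0 to 3, 0 to 5 and 0 to 3 for the 4 lists. The integrin list stayed at 0 in all 17.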

Other observations

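GP replicate 1 had 29 probes over 2-fold above every other array, against 0 to 16 on each of the others. Besides the 5 probes of C1qb, C1qc, Spic, Axl and Mertk and the 4 of Fcna, Cd163, Mrc1 and Apoe, these were 11 hemoglobin probes (6 of Hbb-bs, 4 of Hbb-bt and 1 of Hba-a1), 2 of Itgad, and 1 each of Slco2b1, Epb41l3, Sdc3, St3gal5, Slc1a3 and Tmem45a2, with 1 unnamed probe. Epb41l3, a cytoskeletal adaptor, reached 573 there and 137 to 219 elsewhere, Sdc3, a syndecan, 520 and 177 to 230, and the glutamate transporter gene Slc1a3 306 and 117 to 143. On the same array 9 probes were over 2-fold below every other array, among them F13a1 (6990, with 14038 the next lowest), S100a10, Srm, Txndc5 and Itgb7. These genes were named after their values were seen.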
